A study of Homo sapiens with 27 samples.

Results

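CXCL8 and 8 other chemokine genes were followed through HuH-7 and JHH-7, a pair of established human liver cancer cell lines in which genes of one growth factor receptor complex had been knocked out. The members were taken by gene symbol: CXCL8, CXCL1, CXCL2, CXCL3, CXCL5, CXCL6, CXCL16, CCL20 and CCL2, 9 of the 58735 gene rows that both expression tables hold. All 9 symbols matched 1 row in each table. Each line has a control that received a non-targeting guide (sgNTC, labelled wild type) and knockouts of KLB (sgKLB), of FGFR4 (sgFGFR4) and of FGFR3 with FGFR4 (sgFGFR3/4), and JHH-7 has in addition a knockout of FGFR1, FGFR3 and FGFR4 (sgFGFR1/3/4). Every one of the 9 groups holds 3 libraries of total RNA, which the labels call biological replicates, so that 12 libraries are of HuH-7 and 15 of JHH-7. All cells, controls included, grew in DMEM with fetal bovine serum and antibiotics, with no added ligand or inflammatory stimulus named. Whether a knockout is 1 clone or a pool of edited cells was not given in the sources used here.

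Chemokines are small secreted proteins that draw cells along a gradient by binding G protein-coupled receptors. CXCL8, CXCL1, CXCL2, CXCL3, CXCL5 and CXCL6 carry a glutamate-leucine-arginine motif before their first cysteine, bind CXCR2 (CXCL8 and CXCL6 also CXCR1) and are known for attracting neutrophils and for promoting the growth of blood vessels. CXCL16 is made as a membrane-bound protein that binds CXCR6 on T and natural killer T cells and is released by ADAM10. CCL20 attracts cells that carry CCR6, such as regulatory and Th17 T cells, and CCL2 attracts monocytes through CCR2. Transcription of the neutrophil-attracting genes is known to need NF-kB, with AP-1 and C/EBP factors, and their messages carry AU-rich elements through which their decay is controlled. KLB, or beta-Klotho, is the co-receptor that lets FGF19 signal through FGFR4, and FGFR1, FGFR3 and FGFR4 are receptor tyrosine kinases that feed the MAPK pathway.

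The 6 neutrophil-attracting genes lie close together on chromosome 4, with CXCL8 at 73740506 to 73743716 on the plus strand (GRCh38, GENCODE 29), whereas CCL20 lies on chromosome 2 and CXCL16 and CCL2 on chromosome 17. The sequences below show letters that the promoters of most of these genes hold. Each is 30 bases of promoter around a match to a kB-type motif, with the match in capitals, on the coding strand. They were read from RefSeq promoters (GRCh38.p14, 250 bases before to 50 after each gene's start), of which 7 of the 9 members had one; CXCL16 and CCL2 had none.
CXCL8 chr4:73740467-73740496: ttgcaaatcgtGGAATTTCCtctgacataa
CXCL1 chr4:73869304-73869333: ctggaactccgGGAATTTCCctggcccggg
CXCL2 chr4:74099254-74099283: ctggagctccgGGAATTTCCctggcccggg
CXCL3 chr4:74038749-74038778: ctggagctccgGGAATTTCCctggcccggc
CXCL5 chr4:73998749-73998778: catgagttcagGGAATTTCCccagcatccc
CXCL6 chr4:73836578-73836607: cctgagttcagGGAATTTCCccagcatccc
CCL20 chr2:227813752-227813781: ttgatcaatgGGGAAAACCCcatgtggcaa
CXCL1 and CXCL6 are on the plus strand with CXCL8 and CCL20, and CXCL2, CXCL3 and CXCL5 are on the minus strand. The same 9 letters, GGAATTTCC, searched on both strands, were present in 6 of the 7 member promoters and in 162 of all 35116 promoters of that length (0.461%). The stretches of CXCL1, CXCL2 and CXCL3 are nearly identical, as are those of CXCL5 and CXCL6. The 6 matches are therefore not independent, and the share describes the letters without testing the members. CCL20 lacked that run and its capitals mark the looser pattern GGGNNNNNCC, which 7 of the 7 members and 58.7% of all promoters hold, so that this looser match singles out nothing. A match to these letters is not a measured binding site. Counted from the RefSeq start, the CXCL8 stretch covers positions -102 to -73, and the other 6 stretches begin between -101 and -88. The GENCODE 29 models of CXCL2, CXCL3, CXCL5, CXCL6 and CCL20 begin further upstream, so that these 5 stretches fall inside the longer gene models.

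CXCL8 also held an AP-1 motif, TGACTCA, which no other of the 7 member promoters held and which 4.95% of all promoters hold. A wider view of its promoter, from -147 to -78, shows both motifs in capitals. No binding was measured in these cells.
CXCL8 chr4:73740422-73740491: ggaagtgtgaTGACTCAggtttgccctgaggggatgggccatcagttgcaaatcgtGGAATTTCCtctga

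Expression was given as FPKM, fragments per kilobase of transcript per 1000000 mapped fragments, a value that is scaled for gene length and library size. The steps between low values corresponded to an estimated 14500000 to 27800000 fragments per library, and replicates of a group correlated at 0.987 to 0.991 across genes on the log2 scale. In every knockout the targeted genes were lower than in sgNTC, from FGFR4 in HuH-7 sgFGFR4 (log2 difference -1.44 ± 0.071, SE), the largest of these differences, to FGFR1 in JHH-7 sgFGFR1/3/4 (-0.75 ± 0.15), the smallest. All 11 hepatocyte and liver cancer markers were at 1 FPKM or more in all 9 groups. Of 10 leukocyte markers 3 or 4 were, among them LYZ and CD68, while PTPRC, the pan-leukocyte marker, stayed at or below a group mean of 0.203 FPKM. Of 7 stromal markers 3 or 4 were in HuH-7 groups and 2 or 3 in JHH-7 groups, and of 4 endothelial markers at most 1. The summed hepatocyte markers lay above the JHH-7 control (16577 to 17424 FPKM) in all 4 JHH-7 knockouts, at 19639 to 20381 in sgFGFR4, 21413 to 22375 in sgFGFR3/4, 23844 to 24795 in sgFGFR1/3/4 and 32754 to 33357 in sgKLB. In HuH-7 the sums lay below the control (14247 to 15263) in sgFGFR4 (13104 to 13543) and sgFGFR3/4 (12770 to 13847), and overlapped it in sgKLB. Gene by gene most of the 11 markers went the other way in 2 of these knockouts. At an adjusted p below 0.05, 7 were higher and 3 lower in sgFGFR3/4 (16.1% of all genes called). In sgKLB 7 were higher and 2 lower (17.6%), and in sgFGFR4 0 were higher and 2 lower (3.71%). The summed leukocyte markers were lower in JHH-7 sgKLB (231 to 246) than in its control (313 to 358), carried by LYZ (289 ± 33.0 to 178 ± 11.4, SD, n = 3), and lower in HuH-7 sgKLB (165 to 177) and sgFGFR3/4 (157 to 176) than in theirs (183 to 188). The summed stromal markers in HuH-7 were 206 to 249 in sgNTC, lower in sgKLB (184 to 198) and higher in sgFGFR4 (259 to 299). In sgFGFR3/4 they overlapped the control (228 to 281), and in JHH-7 libraries they lay between 5.46 and 10.93. The part of these shifts in the chemokine values was not tested.

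Levels differed widely between the 9 genes and between the lines. In HuH-7 sgNTC the order of mean FPKM was CCL20 (114), CXCL16 (82.6), CXCL1 (60.5), CXCL5 (21.2), CXCL8 (17.1), CXCL2 (5.27), CXCL6 (3.44) and CXCL3 (1.84). JHH-7 sgNTC kept CCL20 (419) and CXCL16 (62.2) at the top but then held CXCL2 (19.8), CXCL8 (11.7), CXCL3 (6.44) and CXCL1 (6.20). The 2 tables were deposited separately, so levels were tested only within a line. Group means below 1 FPKM were found for CCL2 in all 9 groups and for CXCL5 and CXCL6 in the 5 JHH-7 groups, and for no other member. The lowest group mean above that line was CXCL3 in HuH-7 sgKLB (1.32 ± 0.37), and the highest below it CXCL5 in JHH-7 sgNTC (0.533 ± 0.040). A gene was tested where at least 3 libraries of the line reached 1 FPKM, which left 8 members in HuH-7 and 6 in JHH-7. Every member tested in a line had a mean above 1 FPKM in every group of that line.

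Losing KLB lowered 5 of the 8 tested members in HuH-7 and all 6 in JHH-7. The HuH-7 calls, at an adjusted p below 0.05, were CXCL8, CXCL1, CXCL5, CXCL16 and CCL20, beside 17.6% of all genes called in either direction and 8.62% called lower. Every fit that left out 1 library kept fewer of them, 3 without sgNTC replicate 2 or sgKLB replicate 2 and 4 otherwise. In JHH-7 sgKLB, beside 31.9% of all genes called and 16.4% called lower, such fits kept 5 or 6. The receptor knockouts gave fewer calls. HuH-7 sgFGFR4 had 0 of 8 (3.71% of all genes called; 4 members had an unadjusted p below 0.05) and HuH-7 sgFGFR3/4 had 4 of 8, all lower (CXCL8, CXCL1, CXCL16 and CCL20; 16.1% of all genes called and 7.22% called lower), of which 2 were left without sgNTC replicate 3 or sgFGFR3/4 replicate 1 or 3. In JHH-7, CCL20 alone fell in sgFGFR4 (1 of 6; 4.25%) and in sgFGFR3/4 (1 of 6; 3.53%). JHH-7 sgFGFR1/3/4 had CXCL8 higher and CXCL16 and CCL20 lower (3 of 6; 39.8%). The calls are rows of a fit across all genes, and the comparisons of a line share its 3 sgNTC libraries. Each p-value measures the spread between libraries within groups, pooled over all groups of the line.

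**Figure D1:**
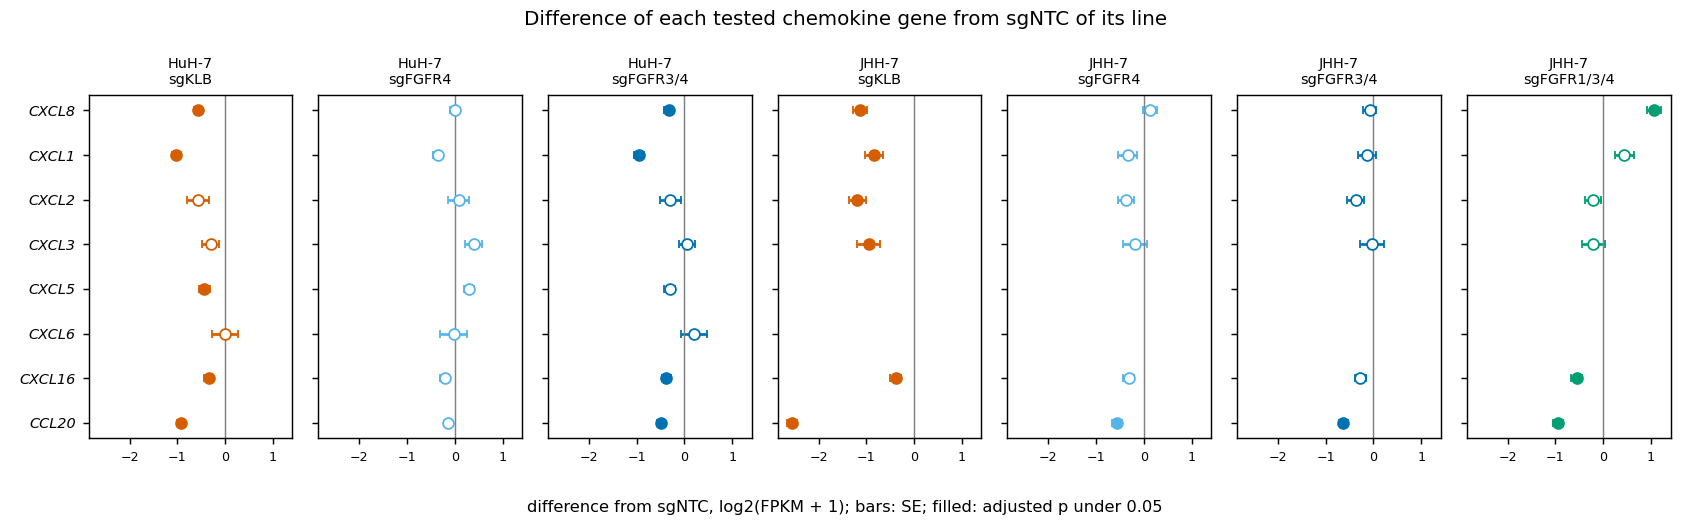
Difference of each tested chemokine gene from sgNTC of its line on the log2(FPKM + 1) scale (x axis), 1 panel per knockout, with bars of 1 SE and filled points where the adjusted p was below 0.05. Both sgKLB panels lie mostly left of 0, and CXCL8 in JHH-7 sgFGFR1/3/4 (1.07) is the filled point to the right of 0.

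CXCL8, the main neutrophil attractant of humans, was measured at 17.4, 17.3 and 16.5 FPKM in the 3 HuH-7 sgNTC libraries and at 10.43, 11.16 and 12.02 in sgKLB. All sgKLB libraries lay below all controls, a 1.52-fold lower mean (log2 difference -0.57 ± 0.092, adjusted p = 0.00131). In sgFGFR4 the values were 15.2, 17.6 and 18.5, spread on both sides of the controls (-0.0044 ± 0.092, adjusted p = 0.983). With FGFR3 lost as well, sgFGFR3/4 gave 13.47, 12.95 and 13.71, all below the controls and all above sgKLB (-0.33 ± 0.092, adjusted p = 0.0327). This last call was lost when any 1 of the 6 libraries was left out (adjusted p 0.0613 to 0.0814) and when values were rescaled to TPM, on which every library sums to 1000000 (-0.23, adjusted p = 0.124). The order of HuH-7 means was therefore sgNTC and sgFGFR4 together (17.1 each), then sgFGFR3/4 (13.4 ± 0.39), then sgKLB (11.2 ± 0.80), and neither of these last 2 steps had overlapping libraries. The direct difference between sgFGFR3/4 and sgFGFR4 (-0.33 ± 0.092, adjusted p = 0.125) and that between sgKLB and sgFGFR3/4 (-0.24 ± 0.092, adjusted p = 0.215) did not pass. The summed FPKM of every HuH-7 sgNTC library (782509 to 822978) lay above that of every HuH-7 knockout library (723416 to 771461). TPM rescaling therefore moves all HuH-7 knockout values up against sgNTC. In sgFGFR3/4 the median log2 difference over all genes went from 0.075 to 0.173. The cause of this shift was not tested. In bulk RNA, fewer cells that make a message and less message per cell cannot be told apart, here and for every value that follows.

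In JHH-7 the same gene moved in both directions. CXCL8 stood at 11.9, 11.2 and 12.1 FPKM in sgNTC and at 5.53, 3.44 and 5.77 in sgKLB, a 2.39-fold lower mean (-1.13 ± 0.14, adjusted p = 3.11e-05). The sgFGFR4 libraries, at 11.97, 14.99 and 12.18, overlapped the controls (0.14 ± 0.14, adjusted p = 0.685), as did sgFGFR3/4 at 10.3, 12.4 and 10.5 (-0.08 ± 0.14, adjusted p = 0.847). When FGFR1 was lost with FGFR3 and FGFR4, CXCL8 reached 24.8, 26.7 and 25.8 FPKM. All 3 of these libraries exceeded every other JHH-7 library, and their mean was 2.19 times that of sgNTC (1.07 ± 0.14, adjusted p = 5.25e-05). The triple knockout also exceeded sgFGFR3/4 (1.15 ± 0.14, adjusted p = 6.28e-05) and lay far above sgKLB, whose mean was 5.24-fold lower (-2.20 ± 0.14, adjusted p = 2.76e-07). Leaving out any 1 library kept the sgKLB and the sgFGFR1/3/4 calls, with log2 differences of -1.24 to -0.94 and 1.04 to 1.10. The sgFGFR1/3/4 libraries stood apart in their summed FPKM, at 734381, 734376 and 734241. These sums were closely alike and below those of every other JHH-7 library (745482 to 791744). Their estimated depths were also the lowest of the line. The part of this in the sgFGFR1/3/4 differences, the CXCL8 rise among them, was not tested.

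**Figure D2:**
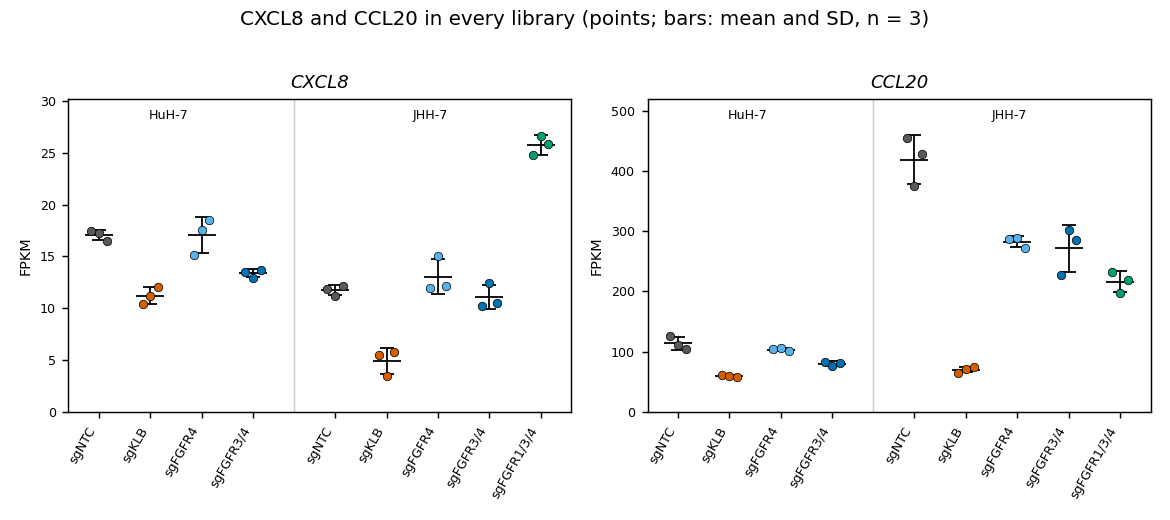
FPKM of CXCL8 (left) and CCL20 (right) in each of the 27 libraries (points), grouped by knockout along the x axis with HuH-7 left and JHH-7 right of the grey line; horizontal bars are means and error bars SD (n = 3). JHH-7 sgFGFR1/3/4 is the highest group for CXCL8 (25.8 FPKM) but lies at 216 FPKM, below the 419 of sgNTC, for CCL20.

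CXCL1, which shares CXCR2 with CXCL8, was the most abundant of the neutrophil-attracting genes in HuH-7. Its sgNTC libraries gave 57.2, 60.6 and 63.6 FPKM, against 26.4, 32.4 and 29.2 in sgKLB and 32.3, 32.6 and 27.4 in sgFGFR3/4. The last pair of groups overlapped each other and lay wholly below the controls, at a 2.06-fold lower mean with sgKLB (-1.02 ± 0.099, adjusted p = 3.6e-05) and a 1.96-fold lower one with sgFGFR3/4 (-0.95 ± 0.099, adjusted p = 0.000155). The sgFGFR4 libraries sat between, at 43.8, 45.6 and 52.0, below all controls without passing the threshold (-0.36 ± 0.099, adjusted p = 0.061). CXCL1 was also lower in sgFGFR3/4 than in sgFGFR4 (-0.60 ± 0.099, adjusted p = 0.00988), a call lost without sgFGFR4 replicate 3 (-0.53, adjusted p = 0.0579) and when only the groups compared were fitted (adjusted p = 0.0501). In JHH-7, at a much lower level, CXCL1 gave 6.89, 5.35 and 6.35 FPKM in sgNTC and 2.90, 4.34 and 2.12 in sgKLB, again without overlap (-0.83 ± 0.19, adjusted p = 0.00404). Here sgFGFR4 (3.98 to 5.69) and sgFGFR3/4 (5.45 to 5.60) overlapped the controls. The triple knockout gave 6.96, 8.77 and 10.9 FPKM, all above sgNTC by a margin that did not pass (0.44 ± 0.19, adjusted p = 0.0824, or 0.0409 without sgFGFR1/3/4 replicate 1). Against sgFGFR3/4 its difference passed (0.58 ± 0.19, adjusted p = 0.0328), but in only 1 of the 6 fits that left out a library (0.0202 without sgFGFR1/3/4 replicate 1, and 0.0629 to 0.142 without sgFGFR1/3/4 replicate 2 or 3 or any sgFGFR3/4 replicate).

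CXCL2 and CXCL3 are close copies of each other and of CXCL1, and bind the same receptor. Of the 50-base stretches of their GENCODE transcripts, 12.5% of those of CXCL2 and 6.01% of those of CXCL3 occur in another member, so their estimates may borrow reads from one another. In JHH-7, where both genes were higher, CXCL2 gave 20.5, 18.0 and 21.0 FPKM in sgNTC and 9.01, 8.16 and 7.28 in sgKLB. That was a 2.44-fold lower mean with no overlap (-1.19 ± 0.17, adjusted p = 9.67e-05). CXCL3 gave 6.79, 5.97 and 6.55 in sgNTC and 2.52, 1.66 and 5.05 in sgKLB, lower in every library although sgKLB replicate 3 lay near the controls (-0.95 ± 0.25, adjusted p = 0.00857). Neither gene passed in JHH-7 sgFGFR4, sgFGFR3/4 or sgFGFR1/3/4, where CXCL2 ranged from 11.50 to 19.72 FPKM and CXCL3 from 4.69 to 8.02. In the triple knockout, in which CXCL8 rose, the log2 difference was -0.22 ± 0.17 for CXCL2 (adjusted p = 0.343) and -0.20 ± 0.25 for CXCL3 (adjusted p = 0.545). Both were lower in sgKLB than in sgFGFR1/3/4, CXCL2 by a log2 difference of -0.97 ± 0.17 (adjusted p = 0.000696) and CXCL3 by -0.75 ± 0.25 (adjusted p = 0.0296). The CXCL3 call was lost without sgKLB replicate 1 (adjusted p = 0.0837), without sgKLB replicate 2 (-0.48, 0.145), without sgFGFR1/3/4 replicate 1 (0.123), and with no filter on low values (0.0779). In HuH-7 neither gene passed against sgNTC in any knockout. CXCL2 was below every control in sgKLB, at 2.68, 3.83 and 3.21 against 4.53, 5.26 and 6.02 FPKM (-0.57 ± 0.22, adjusted p = 0.106). CXCL3 was above every control in sgFGFR4, at 3.04, 2.53 and 2.60 against 1.91, 2.08 and 1.52 (0.39 ± 0.18, adjusted p = 0.176). The share of all genes whose libraries separate in this way was not computed, here or for any other gene.

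CXCL5 and CXCL6, a second pair of near relatives that differ in which receptors they engage, were measurable only in HuH-7. CXCL5 gave 22.2, 21.5 and 19.8 FPKM in sgNTC and 13.7, 15.3 and 17.4 in sgKLB, which lay below all controls (-0.43 ± 0.11, adjusted p = 0.019). That call was lost after TPM rescaling (-0.37, adjusted p = 0.0564) and without sgNTC replicate 1, sgNTC replicate 2, sgKLB replicate 1 or sgKLB replicate 2 (0.0533 to 0.0717). In sgFGFR4 it lay on the other side, at 24.2, 25.6 and 29.2, above every control without passing (0.30 ± 0.11, adjusted p = 0.117), and in sgFGFR3/4 below them at 16.4, 15.4 and 19.1 (-0.31 ± 0.11, adjusted p = 0.0808). The step from sgFGFR4 to sgFGFR3/4 was therefore a 1.55-fold lower mean (-0.61 ± 0.11, adjusted p = 0.0199), a call kept in 2 of 6 fits that left out a library and lost without sgFGFR4 replicate 2 or 3 or sgFGFR3/4 replicate 1 or 2 (adjusted p 0.065 to 0.0949). CXCL6 ranged from 2.24 to 5.33 FPKM over the 12 HuH-7 libraries, with overlap between all groups, and its log2 difference from sgNTC lay between -0.02 and 0.20. In JHH-7 CXCL5 reached at most 0.57 FPKM in any library and CXCL6 at most 0.19, with CXCL6 listed at 0 in all sgNTC libraries. The JHH-7 CXCL5 values of sgNTC (0.49, 0.54 and 0.57) lay above those of every other group of the line, but at this level no fold change was taken from them.

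**Figure D3:**
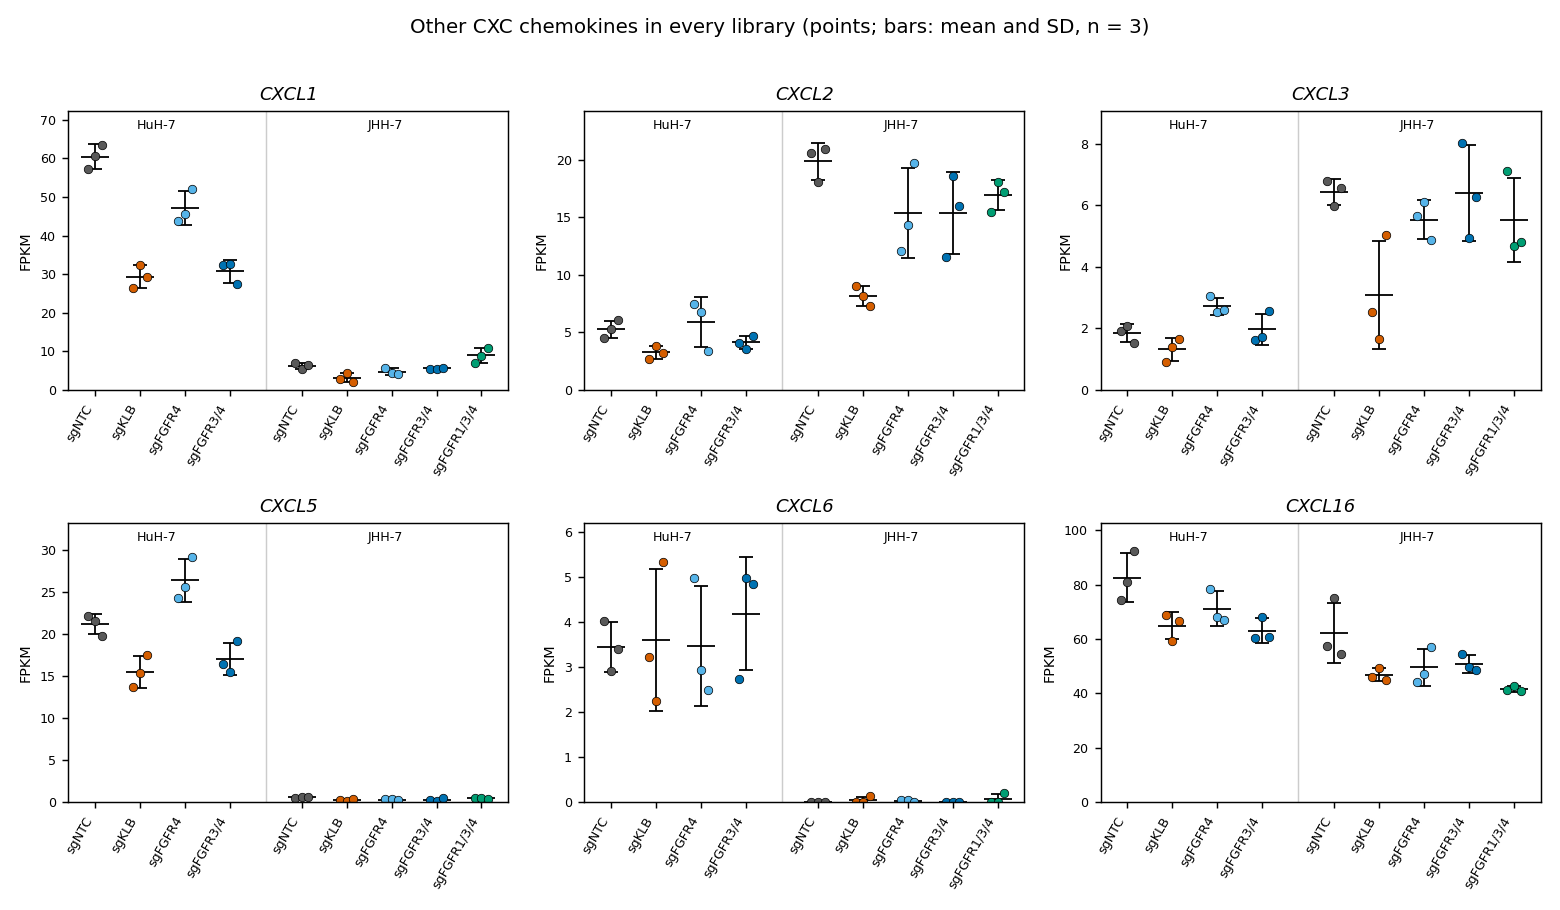
FPKM of CXCL1, CXCL2, CXCL3, CXCL5, CXCL6 and CXCL16 in each of the 27 libraries (points), 1 panel per gene with its own y axis from 0; horizontal bars are means and error bars SD (n = 3). CXCL1 and CXCL5 are high in HuH-7, where sgNTC reaches 60.5 and 21.2 FPKM, and CXCL2 and CXCL3 are higher in JHH-7.

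CXCL16, the membrane-anchored ligand of CXCR6, was abundant in both lines. HuH-7 sgNTC gave 74.5, 81.1 and 92.2 FPKM, against 68.7, 59.4 and 66.6 in sgKLB (-0.34 ± 0.095, adjusted p = 0.0274) and 60.4, 68.3 and 60.7 in sgFGFR3/4 (-0.38 ± 0.095, adjusted p = 0.0205). Both groups lay below every control, and sgFGFR4, at 78.5, 68.2 and 66.9, overlapped them. The sgKLB call was lost without sgNTC replicate 2 or 3 or sgKLB replicate 2 or 3 (adjusted p 0.0577 to 0.105), and the sgFGFR3/4 call without sgNTC replicate 3, sgFGFR3/4 replicate 1 or sgFGFR3/4 replicate 3 (0.0719 to 0.0783). Fitting only the groups compared lost both (adjusted p = 0.0528 and 0.0549), as did testing with no filter on low values (0.0679 and 0.0523). In JHH-7, sgNTC gave 57.3, 74.9 and 54.3 FPKM and sgFGFR1/3/4 gave 41.3, 42.8 and 40.7, a 1.49-fold lower mean that was called in all 6 fits that left out a library (-0.55 ± 0.11, adjusted p = 0.00146). CXCL16 therefore fell in the same triple knockout in which CXCL8 rose. JHH-7 sgKLB, at 46.1, 49.5 and 45.0, was also below every control (-0.39 ± 0.11, adjusted p = 0.0172), though not past the threshold without sgNTC replicate 2 (-0.25, 0.0744), the highest control, or without sgKLB replicate 3 (0.0581). The other JHH-7 knockouts overlapped sgNTC and did not pass, apart from a call of sgFGFR4 without its replicate 3 (-0.42, adjusted p = 0.0487). CXCL16 overlaps MED11 on the opposite strand, and whether counting used the strand was not given in the sources used here.

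CCL20, the only ligand that draws cells through CCR6 among these genes, had the highest level of the 9 in each sgNTC group. JHH-7 sgNTC libraries gave 454, 375 and 427 FPKM, and sgKLB gave 64.9, 71.1 and 73.7, a 5.99-fold lower mean (-2.56 ± 0.10, adjusted p = 5.75e-10). No other member differed from sgNTC by as much in either line. The receptor knockouts lay between: sgFGFR4 at 287, 288 and 272 FPKM (-0.56 ± 0.10, adjusted p = 0.00677), sgFGFR3/4 at 228, 302 and 285 (-0.63 ± 0.10, adjusted p = 0.00345) and sgFGFR1/3/4 at 232, 197 and 219 (-0.95 ± 0.10, adjusted p = 6.81e-06). Each of these groups lay below all controls and above all sgKLB libraries, so that CCL20 was the only member called lower in every JHH-7 knockout. These 4 calls were kept in every fit that left out 1 library, and the sgFGFR3/4 call was lost when only its group and sgNTC were fitted (adjusted p = 0.0582). The triple knockout was lower than sgFGFR3/4 (-0.32 ± 0.10, adjusted p = 0.0256), although 1 library of each overlapped. That call was lost without sgFGFR3/4 replicate 2 or 3 or sgFGFR1/3/4 replicate 2 or 3 (adjusted p 0.0547 to 0.11) and after TPM rescaling (-0.26, 0.09). Between sgFGFR3/4 and sgFGFR4 the values overlapped (-0.07 ± 0.10, adjusted p = 0.987), and sgKLB was 3.09-fold lower than sgFGFR1/3/4 (-1.61 ± 0.10, adjusted p = 2.03e-07).

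In HuH-7 the CCL20 range was narrower. The sgNTC libraries gave 126, 111 and 104 FPKM, against 61.0, 59.4 and 57.5 in sgKLB (1.92-fold lower mean, -0.93 ± 0.071, adjusted p = 7.08e-06) and 83.0, 75.7 and 81.5 in sgFGFR3/4 (1.42-fold lower, -0.50 ± 0.071, adjusted p = 0.00114). Both calls were kept in every fit that left out 1 library. The sgFGFR4 values, 104, 105 and 101, overlapped the lowest control (-0.13 ± 0.071, adjusted p = 0.244). The groups ran in the order sgNTC, sgFGFR4, sgFGFR3/4 and sgKLB, as for CXCL8, and only the first 2 overlapped. CCL20 was lower in sgFGFR3/4 than in sgFGFR4 (-0.37 ± 0.071, adjusted p = 0.0255) and lower in sgKLB than in sgFGFR3/4 (-0.43 ± 0.071, adjusted p = 0.0278). The first of these was lost without any 1 of its 6 libraries (0.063 to 0.108). The second was lost without sgFGFR3/4 replicate 1 or 3 or any sgKLB replicate (0.0851 to 0.149), and kept without sgFGFR3/4 replicate 2 (0.0305).

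CCL2, the monocyte attractant, was listed at 0 in every library except JHH-7 sgFGFR4 replicate 1, at 0.12 FPKM, and was not tested in either line. The direct comparisons between knockouts gave these counts of called members: 3 of 8 between HuH-7 sgFGFR3/4 and sgFGFR4 (CXCL1, CXCL5 and CCL20, all lower in sgFGFR3/4; 1.62% of all genes called and 0.598% called lower), 1 of 8 between HuH-7 sgKLB and sgFGFR3/4 (CCL20; 0.55%) and 0 of 6 between JHH-7 sgFGFR3/4 and sgFGFR4 (0.0133%; 0 of 6 also at an unadjusted p below 0.05). JHH-7 sgFGFR1/3/4 differed from sgFGFR3/4 in 3 of 6 (CXCL8 and CXCL1 higher, CCL20 lower; 32.2%). JHH-7 sgKLB lay below sgFGFR1/3/4 in 5 of 6, all but CXCL16 (35.7% of all genes called and 19.7% called lower).

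Whether a knockout acted differently in the lines was tested as the JHH-7 difference from its control minus the HuH-7 one, for the 6 members tested in each line. CXCL5 and CXCL6 entered that fit through HuH-7 alone, and their differences between lines are not counted because their JHH-7 values were below 1 FPKM. For the loss of KLB, 2 of 6 members passed (19.7% of all genes): CCL20 fell further in JHH-7 (-1.64 ± 0.13, adjusted p = 4.85e-09) and so did CXCL8 (-0.56 ± 0.17, adjusted p = 0.024). The CCL20 difference held in all 12 fits that left out a library, while that of CXCL8 was lost without HuH-7 sgKLB replicate 3 (0.061), JHH-7 sgNTC replicate 3 (0.0506) or JHH-7 sgKLB replicate 2 (-0.37, 0.0681). CXCL1, which was lower with sgKLB in each line, showed no called difference between them (0.19 ± 0.23, adjusted p = 0.638), nor did CXCL2 (-0.62 ± 0.29, 0.147), CXCL3 (-0.65 ± 0.31, 0.162) or CXCL16 (-0.05 ± 0.15, 0.883). CXCL3 passed without JHH-7 sgKLB replicate 3 (-0.98, adjusted p = 0.0115). For the loss of FGFR4, 0 of 6 passed (4.12%), and 1, CCL20, had an unadjusted p below 0.05 (-0.43 ± 0.13, adjusted p = 0.0614). It passed without HuH-7 sgNTC replicate 1 (0.0322) or JHH-7 sgNTC replicate 2 (0.0318) and after TPM rescaling (0.0405). For FGFR3 with FGFR4, 1 of 6 passed (7.21%), CXCL1 (0.82 ± 0.23, adjusted p = 0.031), which fell in HuH-7 and overlapped its controls in JHH-7. That CXCL1 call was kept in 5 of 12 fits that left out a library. It was lost without HuH-7 sgNTC replicate 2 or 3, HuH-7 sgFGFR3/4 replicate 3, JHH-7 sgNTC replicate 2 or 3 or JHH-7 sgFGFR3/4 replicate 1 or 3 (adjusted p 0.0532 to 0.0917), and with a pseudocount of 0.1 (0.0694), no filter (0.0703), TPM rescaling (0.065) and quantile normalization (0.0596). No such test exists for sgFGFR1/3/4, which was made in JHH-7 alone.

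Other chemokine ligands were read from a list of 36 further genes, most of them below the limit of testing: 6 were tested in HuH-7 and 9 in JHH-7. CCL15, a CC chemokine of the liver that binds CCR1 and CCR3, rose where CCL20 fell. Its JHH-7 values were 16.4, 12.9 and 18.8 FPKM in sgNTC and 47.0, 49.6 and 52.3 in sgKLB (1.58 ± 0.11, adjusted p = 5.97e-08). It also rose in JHH-7 sgFGFR4 (0.85 ± 0.11), sgFGFR3/4 (0.76 ± 0.11) and sgFGFR1/3/4 (1.07 ± 0.11), and in HuH-7 sgKLB (0.51 ± 0.12, adjusted p = 0.0109) and sgFGFR3/4 (0.54 ± 0.12, adjusted p = 0.0111), though it shares sequence with the CCL15-CCL14 readthrough gene and its level is uncertain for that reason. CX3CL1, or fractalkine, a membrane-anchored ligand like CXCL16, was at 6.65, 7.64 and 5.73 FPKM in JHH-7 sgNTC and rose to 16.4, 18.4 and 20.4 in sgKLB (1.34 ± 0.12, adjusted p = 1.43e-06), with smaller rises in JHH-7 sgFGFR1/3/4 (0.79 ± 0.12) and in HuH-7 sgKLB (0.30 ± 0.075, adjusted p = 0.0162). The call of CX3CL1 in HuH-7 was lost without sgNTC replicate 1 or 2 or sgKLB replicate 1 (adjusted p 0.051 to 0.0621). In all, 6 of the 9 listed ligands tested in JHH-7 rose with sgKLB, beside 15.5% of all genes called higher, CCL16 (1.47 ± 0.24) and CCL26 (1.47 ± 0.33) from below 1 FPKM, and MIF, a cytokine with chemokine-like activity, fell (-0.29 ± 0.075). The median log2 difference of the 9 was 1.24, beside -0.02 over all genes, and in HuH-7 sgKLB it was 0.12 over 6 genes, beside 0.02. CCL16 and CCL26 passed the filter only through the groups where they were high, so that these counts describe and do not test the list.

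The receptors of the neutrophil-attracting chemokines were nearly silent: CXCR1 was at or below a group mean of 0.04 FPKM in all 9 groups, and CXCR2 was listed at 0 in HuH-7 and at most 0.68 ± 0.61 in JHH-7. CCR6, the CCL20 receptor, was expressed. In JHH-7 it was at 15.2, 12.3 and 15.6 FPKM in sgNTC, 26.9, 20.3 and 27.5 in sgKLB (0.75 ± 0.16, adjusted p = 0.002), 31.6, 24.5 and 19.3 in sgFGFR4 (0.75 ± 0.16, adjusted p = 0.0154) and 42.4, 35.8 and 38.8 in sgFGFR1/3/4 (1.38 ± 0.16, adjusted p = 1.11e-05). In sgFGFR3/4, where CCL20 was also called lower, CCR6 was at 18.8, 19.2 and 20.6 and did not pass (0.43 ± 0.16, adjusted p = 0.177). All 4 knockouts lay above every control. The CCR6 call in sgFGFR4 was lost without sgNTC replicate 2 or sgFGFR4 replicate 1 or 2 (adjusted p 0.0565 to 0.0803) and when only the groups compared were fitted (0.0847). In HuH-7 no receptor of the 5 tested passed in any knockout (CCR6 in sgKLB alone had an unadjusted p below 0.05), and CCR6 ranged from 4.01 to 7.59 FPKM. Of all genes, 17.6% were called in HuH-7 sgKLB, 3.71% in sgFGFR4 and 16.1% in sgFGFR3/4, so that few calls among 5 genes could be looked for. The difference between the lines in the CCR6 response to KLB loss passed (1.084 ± 0.21, adjusted p = 0.000678).

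Genes of the NF-kB pathway were described by a list of 24 symbols, 23 of which matched a single row, with 22 tested in HuH-7 and 21 in JHH-7. In JHH-7 sgKLB 10 of 21 fell, beside 16.4% of all genes called lower, and none rose. ICAM1, an adhesion molecule for leukocytes, went from 59.8, 70.7 and 51.8 FPKM to 14.9, 13.9 and 13.1 (-2.04 ± 0.12, adjusted p = 2.11e-08), and IER3, an immediate early gene, fell by 2.06 ± 0.085 on the log2 scale. TNFAIP2 (-0.84 ± 0.082) and IKBKG, the regulatory subunit of the IkB kinase (-0.98 ± 0.097), fell as well. The JHH-7 triple knockout gave 11 lower and 4 higher of 21, beside 39.8% of all genes called, and 10 in all without sgNTC replicate 2. ICAM1 (-1.80 ± 0.12), IER3 (-1.12 ± 0.085), NFKB2 (-1.10 ± 0.10) and TNFAIP2 (-0.94 ± 0.082) fell there, while the kinase gene CHUK (0.79 ± 0.16), the subunit gene REL (0.51 ± 0.16), the feedback inhibitor gene TNFAIP3 (0.76 ± 0.17) and NFKBIZ, which encodes an atypical IkB protein (0.47 ± 0.16), rose. In HuH-7 sgKLB 2 of 22 fell, IER3 (-1.02 ± 0.072) and ICAM1 (-0.42 ± 0.10), and 2 rose, TNFAIP3 (0.87 ± 0.18) and BIRC3 (0.72 ± 0.19). That count of 4 is near the 17.6% of all genes called, and was 2 without sgKLB replicate 2. IER3 was called lower in all 7 knockouts, HuH-7 sgFGFR4 (-0.38 ± 0.072, adjusted p = 0.0368) among them, where no chemokine member was. That IER3 call was kept only without sgNTC replicate 1, and was lost without sgNTC replicate 2 or 3 or any sgFGFR4 replicate (adjusted p 0.0619 to 0.147). The rise of BIRC3 was lost without any sgNTC replicate or sgKLB replicate 2 or 3 (0.0529 to 0.0891) and the fall of ICAM1 in HuH-7 sgKLB without sgKLB replicate 2 (0.0546). In the JHH-7 triple knockout the rise of NFKBIZ was lost without sgNTC replicate 1 or 2 or any sgFGFR1/3/4 replicate (0.0526 to 0.0991), and that of REL without sgNTC replicate 2 or sgFGFR1/3/4 replicate 1 or 3 (0.0561 to 0.104). The median of the list was -0.28 in JHH-7 sgKLB and -0.35 in JHH-7 sgFGFR1/3/4, beside -0.02 and 0.03 over all genes, and -0.01 in HuH-7 sgKLB, beside 0.02.

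**Figure D4:**
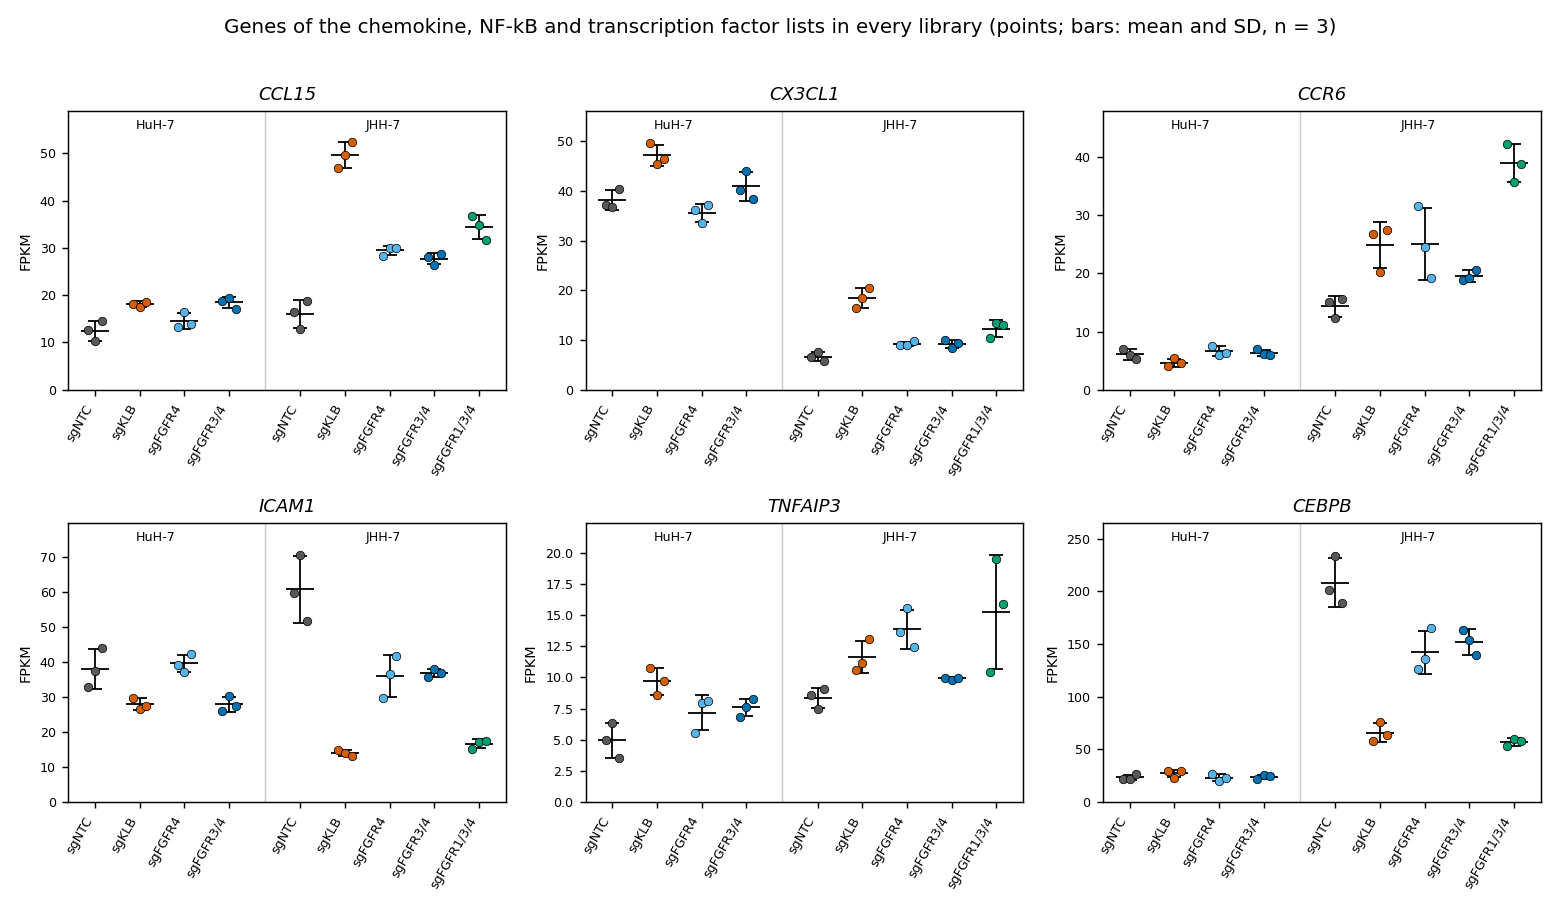
FPKM of the chemokine ligand genes CCL15 and CX3CL1, the CCL20 receptor gene CCR6, the NF-kB list genes ICAM1 and TNFAIP3 and the transcription factor gene CEBPB in each of the 27 libraries (points), 1 panel per gene with its own y axis from 0; horizontal bars are means and error bars SD (n = 3). Within JHH-7, sgNTC is the lowest group for CCL15, CX3CL1 and CCR6 and the highest for ICAM1 and CEBPB.

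Among 17 other transcription factors known to act on chemokine genes, the lines differed in which moved with sgKLB. CEBPB, the C/EBP factor of inflammatory genes, was at 202, 234 and 189 FPKM in JHH-7 sgNTC, at 57.8, 76.3 and 63.5 in sgKLB (-1.65 ± 0.12, adjusted p = 1.06e-07) and at 52.9, 60.2 and 57.4 in sgFGFR1/3/4 (-1.85 ± 0.12, adjusted p = 6.4e-08). In HuH-7 CEBPB was not called, and the difference between the lines for sgKLB was -1.85 ± 0.18 (adjusted p = 1.12e-07). JUNB, an AP-1 subunit, fell in both, by 1.27 ± 0.083 in JHH-7 and by 0.52 ± 0.10 in HuH-7 sgKLB on the log2 scale. ATF3 fell in JHH-7 sgKLB (-1.52 ± 0.16) and rose in HuH-7 sgKLB (0.62 ± 0.12), with a tested difference of -2.14 ± 0.21 (adjusted p = 1.22e-07). Over the list, 3 rose and 7 fell of 16 tested in JHH-7 sgKLB, beside 15.5% of all genes called higher and 16.4% called lower. In HuH-7 sgKLB 8 rose and 2 fell of 17, beside 8.98% called higher and 8.62% called lower, and the 10 calls were 6 without sgNTC replicate 2 and 5 without sgKLB replicate 1.

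Of 9 regulators of AU-rich message decay, ZFP36, whose protein destabilises such messages, fell in JHH-7 sgKLB (-0.42 ± 0.10) and sgFGFR1/3/4 (-0.53 ± 0.10), and its relative ZFP36L2 rose in the same groups (0.83 ± 0.061 and 0.42 ± 0.061). HNRNPD, which encodes the decay factor AUF1, fell in HuH-7 sgKLB (-0.41 ± 0.053) and sgFGFR3/4 (-0.44 ± 0.053). The list gave 1 higher and 3 lower of 9 in JHH-7 sgKLB (31.9% of all genes called) and in HuH-7 sgFGFR3/4 (16.1%). It gave 1 higher and 1 lower in JHH-7 sgFGFR1/3/4 (39.8%) and in HuH-7 sgKLB (17.6%). HuH-7 sgFGFR4 gave 1 lower (3.71%), and JHH-7 sgFGFR4 and sgFGFR3/4 gave none (4.25% and 3.53%). A signature of MAPK pathway activity, the genes of growth factor feedback such as SPRY4 and ETV4, had 7 of 9 tested genes lower and none higher with sgKLB in each line (median -1.01 in HuH-7 and -1.74 in JHH-7), beside 8.62% and 16.4% of all genes called lower. In HuH-7 sgFGFR4 1 of 9 was lower (3.71% of all genes called), and none in 5 of the 6 fits that left out a library, all but that without sgNTC replicate 1. In HuH-7 sgFGFR3/4 6 were lower (7.22% called lower), and 3 without sgNTC replicate 2 or sgFGFR3/4 replicate 3. In JHH-7 sgFGFR4 3 were lower (4.25% called), but 1 without sgNTC replicate 2 or sgFGFR4 replicate 1 and 2 without any other library. In JHH-7 sgFGFR3/4 3 were lower as well (3.53%), with 2 or 3 in such fits, and in JHH-7 sgFGFR1/3/4 5 were lower and 2 higher (39.8%; median -0.79). SPRY4, an inhibitor of the pathway that the pathway itself induces, had a mean of 18.6 ± 1.33 FPKM in JHH-7 sgNTC, 4.05 ± 0.69 in sgKLB and 9.77 ± 1.07 in sgFGFR1/3/4.

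The genes whose levels ran closest to CXCL8 over the libraries of a line were, in HuH-7, CCDC50 (Pearson r = 0.972), PNO1 (0.971), MELK (0.965), EFEMP1 (0.965) and DKK1 (0.962), over 12 libraries and 10547 genes. In JHH-7 they were SNHG4 (0.962), COPS3 (0.956), PNO1 (0.955), LIN9 (0.952) and USP1 (0.951), over 15 libraries and 10599 genes. PNO1, a ribosome assembly factor, was named in both. None of the other chemokine members compared was among the nearest 5. The ranking took only genes above a set mean level, which left CXCL3 out in HuH-7. In HuH-7 CCL20 ranked 36th (0.932), CXCL5 104th (0.898), CXCL1 182nd (0.873), CXCL2 1507th (0.594), CXCL16 2034th (0.508) and CXCL6 6635th (-0.147). In JHH-7 CXCL1 ranked 688th (0.782), CXCL2 1276th (0.699), CCL20 2023rd (0.596), CXCL3 2137th (0.581) and CXCL16 7374th (-0.269). CXCL6 in HuH-7 and CXCL16 in JHH-7 were thus the members with a negative correlation among those compared. Libraries of 1 group share their cells and knockout, so these values describe the pattern over 4 or 5 groups and carry no p-value.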

How the data were processed

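Total RNA of cultured cells was sequenced in 27 libraries, 3 in each of 9 groups. The authors deposited 1 table of FPKM values for each line, made with RSEM on GRCh38 (hg38) per the submitters' processing notes; the aligner, annotation release and strand setting were not given in the sources used here. FPKM values hold no counts, so no count model was used. Columns were matched to samples by name. Values were taken as log2(FPKM + 1), so that a fold change of a low gene is understated, and genes with at least 1 FPKM in at least 3 libraries of a line were kept (14716 in HuH-7, 14987 in JHH-7, 16731 for both lines). limma 3.58.1 in R 4.3.3 was fitted per line over all its groups with an intensity trend and robust variances, and once over both lines for differences between them; the scripts were tested on simulated data. All p-values are two-sided, adjusted p-values are Benjamini-Hochberg over all genes tested, with a threshold of 0.05, and 15 comparisons were made: 7 with sgNTC, 5 between knockouts and 3 between lines.

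The members and lists were chosen with earlier results of these data known, so no p-value was adjusted over them alone and no list was tested. Genes of a list were drawn from up to 4 smallest p-values in each direction among those called against sgNTC, and not all of these were named. CXCL8-like genes were named by the 5 highest correlations, and other genes (LYZ, CD68, PTPRC, CXCR1, CXCR2 and CCL26 among them) after their values were seen. In JHH-7 sgKLB (31.9% of all genes called), a further list of inflammatory cytokines and receptors had 6 higher and 6 lower of 20. In HuH-7 sgKLB (17.6%) it had 5 higher and 2 lower of 18. A list of chemokine proteases and carriers had 2 higher and 1 lower in each, of 7 in JHH-7 and 8 in HuH-7. SOD2 has 2 rows and was left out of its list. Depth was estimated from the steps between low FPKM values, 87.3% to 92.9% of which lay within 0.1 of a whole number of fragments. Alternatives were a pseudocount of 0.1, no filter, rescaling to TPM, quantile normalization, fitting only the groups compared, a replicate block and leaving out each library. Promoter letters came from RefSeq, gene positions from GENCODE 29. The limma test measures the spread between libraries within groups, pooled over all groups of the fit and drawn towards that of other genes.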

Additional observations from a re-analysis of the deposited data

Results flagged for a closer look

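The test of the difference itself between the lines (JHH-7 minus HuH-7) covered the 6 members tested in each line. It passed for 2 of 6 with sgKLB (19.7% of all genes), 0 of 6 with sgFGFR4 (4.12%) and 1 of 6 with sgFGFR3/4 (7.21%). After KLB loss the difference was -1.637 for CCL20 (adjusted p = 4.85e-09) and -0.563 for CXCL8 (adjusted p = 0.024), each falling further in JHH-7. After loss of FGFR3 and FGFR4 it was 0.8172 for CXCL1 (adjusted p = 0.031). The CCL20 difference was called in 12 of 12 fits that left out a library, CXCL8 in 9 and CXCL1 in 5.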

How the results depend on the processing

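No member called against sgNTC changed direction under any alternative. CXCL8 in HuH-7 sgFGFR4, which was not called, changed sign after TPM rescaling (0.07722) and over the fits that left out a library (-0.06079 to 0.074, with 0.009927 and 0.004426 between). In HuH-7 sgFGFR3/4 the CXCL8 difference was no longer called at -0.3301 with no filter (adjusted p = 0.0595), with only the groups compared (0.0705) and with a replicate block (0.0539), at -0.2313 after TPM rescaling (0.124), and at -0.3532 to -0.3086 without 1 library. The number of members called moved there from 4 to 2 with no filter and with only the groups compared (2 to 3 without 1 library). With only the groups compared it fell from 1 to 0 in JHH-7 sgFGFR3/4, from 3 to 0 between HuH-7 sgFGFR3/4 and sgFGFR4 and from 1 to 0 between HuH-7 sgKLB and sgFGFR3/4. With no filter it was 1 of 3 in the second of these, 0 in the last, 1 of 3 between JHH-7 sgFGFR1/3/4 and sgFGFR3/4, and for the differences between lines 1 of 2 for sgKLB, 0 of 1 for sgFGFR4 and 0 of 1 for sgFGFR3/4. Those last 2 counts were also 0 with a pseudocount of 0.1, and TPM rescaling gave 2 and 0 and quantile normalization 0 for sgFGFR3/4. Without 1 library the counts were 3 to 4 in HuH-7 sgKLB, 1 to 2 in JHH-7 sgFGFR4, 0 to 2 between HuH-7 sgFGFR3/4 and sgFGFR4, 0 to 1 between HuH-7 sgKLB and sgFGFR3/4, 1 to 3 between JHH-7 sgFGFR1/3/4 and sgFGFR3/4, and 1 to 3, 0 to 2 and 0 to 1 for the line differences of sgKLB, sgFGFR4 and sgFGFR3/4. The cause was not tested. These counts between lines include CXCL5 and CXCL6; over the 6 members tested in each line, a choice made after seeing the data, they were 2, 0 and 1. The labels' replicate numbers did not pair libraries: deviations of same-numbered libraries correlated at -0.206 to 0.084 in HuH-7 and -0.189 to 0.053 in JHH-7. A replicate block took the members called between HuH-7 sgKLB and sgFGFR3/4 from 1 to 0. Over all genes, TPM rescaling moved the median difference between lines for sgFGFR3/4 from -0.068 to -0.173, and the split of higher to lower calls from 1322 and 1269 to 1730 and 974 in HuH-7 sgKLB, from 304 and 242 to 473 and 131 in HuH-7 sgFGFR4, and from 1309 and 1062 to 2238 and 639 in HuH-7 sgFGFR3/4, where quantile normalization gave 892 and 966. Calls over all genes in HuH-7 sgFGFR4 ranged from 0.0034% with no filter to 8.36% without sgNTC replicate 1. Counts of called genes were taken for each list, knockout and alternative. Of these counts, 145 moved by over 1.5 times or to or from 0, and 527 did not. Fits without 1 library gave 82 of the moved counts. Read depth is not part of FPKM values, so no counting error was given, and values near 0 such as those of CCL2 and CXCL6 in JHH-7 carry no fold change.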
